A study of Drosophila melanogaster with 18 samples.

Results

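ChIPCRM3407 is one of the mesodermal enhancers that were assayed in Drosophila melanogaster embryos by quantitative enhancer-FACS-seq (QeFS), together with versions of it in which the binding sites of Deaf1, Schlank or ZIPIC were mutated. The members are all reporter tags whose construct name starts with ChIPCRM3407. There were 24 such tags of 312 in the pool, and they belonged to 7 constructs of 93. The constructs are written WT for the wildtype enhancer, and otherwise with the letters of the mutated motifs, D for Deaf1, S for Schlank and Z for ZIPIC. They were WT, S, Z, DS, DZ, SZ and the triple mutant DSZ. The D single mutant was not measured here, so the loss of the Deaf1 sites was seen only where another motif was mutated as well.

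Each reporter of the pool was integrated at the attP40 landing site, with a tag of 20 bases in its transcript. Males with these reporters (strain w- nos-ΦC31; attP40 before injection) were crossed to virgin females that expressed the rat surface protein CD2 in a chosen cell type, and eggs were laid for 2.25 h and then aged for 11 h at 18 °C. In twi:CD2 crosses the twi promoter drove CD2 in the whole mesoderm, and the CD2+ cells were sorted in 3 collections. In mef2[IE-D5]:CD2 crosses a Mef2 enhancer drove CD2 in fusion-competent myoblasts, and the CD2- cells, which are embryonic cells depleted of these myoblasts, were sorted in 6 collections, 3 in each of 2 weeks. The mef2:CD2- cells thus included most of the embryo, other mesoderm among it. RNA and DNA were taken from the same sorted cells of each collection, and no marker gene was counted, so the identity of the sorted cells could not be checked in the files. Each collection pools many embryos from a population cage, and the populations came from different crosses and days, so a difference between them cannot be told apart from one between crosses or days. Likewise, fewer expressing cells and less RNA per cell cannot be told apart in such bulk samples.

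Deaf1 is a DNA-binding protein known as a partner of the Hox protein Deformed and both activates and represses transcription. ZIPIC is a zinc-finger protein that recruits the insulator cofactor CP190, and Schlank is a ceramide synthase that also holds a DNA-binding homeodomain. In an enhancer, sites of several such proteins can act separately, so that the effects of their loss multiply, or they can depend on each other, so that the effect of losing one site differs with the state of another. The second case is called epistasis, and the series of single, double and triple mutants was built to measure it.

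Positions in the enhancer are counted from 1 at the first enhancer base after the barcode and cloning site of the synthesised construct, and the first 385 bases of the enhancer were compared. The mutations there were single-base changes, C162G, C222A and G282C for Deaf1 and G174C, C186G and G200C for ZIPIC. The ZIPIC changes thus all lay between the Deaf1 changes C162G and C222A. No change of the Schlank mutation lay in this stretch, and the rest of the enhancer was not analysed here. In each combined mutant the changes in this stretch were exactly the union of those of its single mutants. What distinguished the reporters in the counts was the tag. The tags of WT, S, Z and SZ that gave values in mef2:CD2- cells are shown because the largest effects and the interaction below rest on these reporters (5′ to 3′, with no part marked).
WT tag 1: agggatctttattcaatgag
WT tag 2: cagtctaaaattgtacaata
WT tag 3: tgaatacgatagagtctatt
S tag 1: accctctcataggtgcccta
S tag 2: tcgtatcatgtgcccggcgt
S tag 4: tggtactcaaaaacaaaggg
Z tag 1: agtaaagttcgacagcgata
Z tag 2: caatcaatacacgttcacca
SZ tag 1: aaacagataatagcccctag
SZ tag 2: cgagactcatactcctttcg
SZ tag 3: tctattaagttggttaacgg
SZ tag 4: ttaggctacgaacgacggca
The ChIPCRM3407 tags differed from the nearest other tag of the pool by 5 to 9 edits, above the 2 mismatches that the alignment allowed.

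Reporter expression was normalized to DNA and is called activity here. For each tag and collection it is the fraction of RNA UMIs that the tag received over the corresponding fraction of DNA UMIs, where UMIs (unique molecular identifiers) mark single molecules. An activity of 1 therefore means that the tag was as frequent in the transcripts as in the DNA. An observation, which is 1 tag in 1 collection, was used where the tag had at least 65 DNA UMIs and its construct at least 4 such observations in the population. RNA libraries held 813922 to 1366066 UMIs in twi:CD2+ cells and 560294 to 1201998 in mef2:CD2- cells, and DNA libraries 317396 to 621449 and 54038 to 248151. ChIPCRM3407 tags took 6.82 to 9.18% of the DNA UMIs but only 1.61 to 2.02% of the RNA UMIs in twi:CD2+ cells. The corresponding shares in mef2:CD2- cells were 5.54 to 8.33% and, for RNA, 1.18 to 1.69% in week 1 and 2.36 to 2.80% in week 2. Counting error alone had a median SD of 0.06 on the log2 scale for a used observation in twi:CD2+ samples and 0.11 in mef2:CD2- samples, with a highest value of 0.39.

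Of the 24 tags, 20 gave a used observation, 19 in each population. These were 51 observations of 6 constructs for twi:CD2+ and 103 of all 7 constructs for mef2:CD2-. Just outside the minimum lay an observation of SZ tag 4 in mef2:CD2- collection 3, with 60 DNA UMIs, 325 RNA UMIs and an activity of 0.522, above all used SZ values in this population. Just inside it lay one of DZ tag 2 with 71 DNA UMIs and an activity of 0.222. Z tag 3, Z tag 4 and DSZ tag 2 had at most 6 UMIs in any library, and DSZ tag 3 had at most 41 DNA UMIs. The triple mutant was therefore represented by DSZ tag 1 alone, with 4 observations in mef2:CD2- cells and 2 in twi:CD2+ cells, where the construct fell below the minimum of 4. S tag 3 was used only in twi:CD2+ cells. Tags of a construct mark separate reporters at the same landing site, and observations of 1 tag share its reporter. The tests below treat observations as the units, as the study's methods do. Those methods test each week by itself, whereas the main mef2:CD2- tests here pool both weeks. Observations that share a tag or a collection are not independent, so these p-values can be too small, and the results with tag means as the units are given beside them. The minimum of 4 observations was applied over both weeks of mef2:CD2- collections together, whereas the study's methods apply it to each week. DSZ, with 3 observations in week 1 and 1 in week 2, was kept only by this pooling.

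The wildtype enhancer was a weak member of the pool. WT had an activity of 0.282 ± 0.136 (SD, n = 8 observations of 3 tags) in twi:CD2+ cells and 0.195 ± 0.152 (n = 17 of 3 tags) in mef2:CD2- cells. It ranked 8 of 11 wildtype enhancers by mean activity in twi:CD2+ cells, where these ranged from 0.0366 to 7.90, and 10 of 11 in mef2:CD2- cells, where they ranged from 0.0253 to 6.11. Its tags were uneven. WT tag 1 had activities of 0.385, 0.347 and 0.503 in the 3 twi:CD2+ collections, above every used observation of the other tags in the same collection. WT tag 2 had 0.180 and 0.0859 in the first and second and only 4 DNA UMIs in the third, where it was not used, and WT tag 3 had 0.299, 0.153 and 0.307. In mef2:CD2- cells WT tag 1 had 0.155, 0.174, 0.0693, 0.00510, 0.00460 and 0.590 in collections 1 to 6. The 4th and 5th values came from 14 and 22 RNA UMIs on 547 and 690 DNA UMIs, so that the DNA of this reporter was well covered where its RNA was nearly missing. WT tag 3 had 0.244, 0.230, 0.189, 0.226, 0.145 and 0.509, and WT tag 2 lay between 0.0894 and 0.205 in 5 collections. Collection 6 was thus the highest for 2 of the 3 wildtype tags.

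The S mutant had the highest mean of the ChIPCRM3407 constructs in twi:CD2+ cells, with an activity of 0.382 ± 0.116 (n = 10 of 4 tags). S tag 1 had 0.432, 0.374 and 0.174 in collections 1 to 3 and S tag 2 had 0.428, 0.293 and 0.299. S tag 3 had 0.344 and 0.568 and S tag 4 had 0.375 and 0.531, each in collections 1 and 3. The 4 tags thus lay close together, with means of 0.327 to 0.456. The other mutants had means below that of the wildtype. Z had 0.239 ± 0.105 (n = 5 of 2 tags), DS 0.240 ± 0.0582 (n = 6 of 2 tags), SZ 0.229 ± 0.156 (n = 12 of 4 tags) and DZ 0.152 ± 0.107 (n = 10 of 4 tags). All of these ranges overlapped that of the wildtype. DS tag 1 had 0.259, 0.295 and 0.176 and DS tag 2 had 0.312, 0.223 and 0.177, so that its reporters were nearly equal. SZ tag 1 had 0.160, 0.173 and 0.679, SZ tag 2 had 0.210, 0.206 and 0.124, SZ tag 3 had 0.277, 0.118 and 0.322, and SZ tag 4 had 0.236, 0.147 and 0.102. SZ, the widest of them, thus held a single high value, 0.679 for SZ tag 1 in collection 3, against 0.102 to 0.322 for its other 11 observations. DZ tag 1 had 0.0896, 0.294 and 0.0699, DZ tag 3 had 0.0646, 0.154 and 0.143, and DZ tag 4 had 0.106, 0.137 and 0.0779. DZ likewise held 1 value above these, 0.388 for the only observation of DZ tag 2. DSZ tag 1 had 0.106 and 0.292 and entered no test.

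In mef2:CD2- cells the Z mutant stood apart, but through 1 of its 2 reporters. Z tag 2 had activities of 1.32, 1.75, 0.861, 2.51, 1.62 and 3.33 in collections 1 to 6, whereas Z tag 1 had 0.174, 0.250, 0.199, 0.163, 0.0935 and 0.167. Every value of Z tag 2 was above every value of Z tag 1, by 4.32 to 20.0-fold within a collection. Z tag 1 stayed within the range of the wildtype. The 5 ChIPCRM3407 observations at or above 1 in this population were all of Z tag 2, and the highest value of any other tag was 0.789. The spread between the tag means of Z, 10.9-fold, was the 3rd widest of 85 constructs with at least 2 tags, whose median was 1.66-fold. Z tag 2 did not stand out in depth. It had 210 to 1076 DNA UMIs in these collections, and its RNA reads per UMI were 0.718 to 0.863 times those of the library, within the 0.428 to 0.971 of the other tags. In twi:CD2+ cells the same tag had 0.281, 0.251 and 0.357, beside 0.233 and 0.0722 for Z tag 1 in collections 2 and 3. Whether Z tag 2 marks the Z construct under which it is listed, and whether its reporter carried a further difference, was not tested, since the files hold counts only. Every value of Z below therefore depends on this tag, and the called ones are given without it as well. In mef2:CD2- cells Z then rests on 1 reporter, Z tag 1. The p-values of motif effects and interactions without Z tag 2 treat the 6 observations of this reporter as independent.

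The other mutants in mef2:CD2- cells were in order S, DS, DSZ, DZ and SZ. S had 0.331 ± 0.205 (n = 18 of 3 tags), with tag means of 0.249 to 0.414. S tag 1 had 0.201, 0.363, 0.258, 0.789, 0.535 and 0.339 in collections 1 to 6, S tag 2 had 0.190, 0.173, 0.0567, 0.333, 0.0774 and 0.666, and S tag 4 had 0.135, 0.259, 0.579, 0.177, 0.396 and 0.427. No tag of S was the highest in every collection. DS had 0.170 ± 0.0535 (n = 12 of 2 tags), with 0.0880 to 0.218 for DS tag 1 and 0.110 to 0.253 for DS tag 2. DSZ tag 1 had 0.0361, 0.120, 0.115 and 0.209 in collections 1 to 4. DZ had 0.106 ± 0.0522 (n = 20 of 4 tags) and SZ 0.0912 ± 0.0498 (n = 20 of 4 tags). SZ tag 1 lay between 0.0161 and 0.130 in 4 collections, SZ tag 2 between 0.0652 and 0.145 in 6, SZ tag 3 between 0.0218 and 0.212 in 5, and SZ tag 4 between 0.0417 and 0.119 in 5. For DZ the ranges were 0.0710 to 0.194 for tag 1, 0.0381 to 0.222 for tag 2, 0.0218 to 0.171 for tag 3 and 0.0608 to 0.133 for tag 4. The double mutants that lacked the ZIPIC sites were thus even between reporters in the used observations, with tag means of 0.0979 to 0.119 for DZ and 0.0705 to 0.106 for SZ. All 8 of these tag means lay below all 3 of the wildtype, the lowest of which was 0.155. In the order of means, Z against S, S against DS, DS against DSZ, DSZ against DZ and DZ against SZ did not pass the test of their difference (exact permutation test, adjusted p = 0.637, 0.113, 0.228, 0.684 and 0.423). All 7 constructs had a higher mean in week 2 than in week 1, for example 0.415 against 0.246 for S and 0.233 against 0.161 for WT. For DSZ, week 2 held 1 observation.

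With observations as the units, the constructs of the series differed in both populations (Kruskal-Wallis statistic with 100000 permutations, p = 0.00142 in twi:CD2+ cells and p = 1e-05, the smallest the permutations can give, in mef2:CD2- cells). Pairs of constructs were then compared through their mean ranks, in an exact permutation test with both sides counted, with p-values adjusted over the pairs of all enhancer series in the population that passed this first step and a threshold of 0.1. Of the ChIPCRM3407 pairs that differed by exactly 1 motif, 2 of 6 were called in twi:CD2+ cells, beside 42.3% of the 71 such pairs of all series tested, and 5 of 9 in mef2:CD2- cells, beside 58.4% of 89. By direction, 2 and 3 of them were lower in the mutant, beside 32.4 and 40.4% of all such pairs, and 0 and 2 were higher, beside 9.86 and 18.0%. These shares are near the background and are no result about ChIPCRM3407. With the means of the tags as the units, the series passed this first step in mef2:CD2- cells (Kruskal-Wallis permutation test, p = 4e-05). Of the pairs there, 0 of 9 were called. In twi:CD2+ cells the series difference was lost in this setting (Kruskal-Wallis permutation test, p = 0.168). The 6 pairs in twi:CD2+ cells were therefore not tested with tag means, since the series did not pass the first step (p under 0.1). At an unadjusted exact p under 0.05, without the first step, the tag means gave 0 of 6 and 1 of 9 pairs. The few tags per construct allow no exact p below 0.0286 for a pair in either population.

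Loss of the Schlank sites raised activity on the WT background and lowered it on the Z background, both in mef2:CD2- cells, and was not called on the DZ background. From WT to S, mean activity was 1.70-fold higher in mef2:CD2- cells (exact permutation test, adjusted p = 0.0915), and the collection mean was higher in 6 of 6 collections, by 1.03 to 3.74-fold. In 8 of 9 pairs of tags the S tag was above the WT tag. This call rested on a narrow margin. It was lost, with folds of 1.48 to 1.81, in each week alone, without any one of collections 1 to 5, and without S tag 1, S tag 4, WT tag 1 or WT tag 2, and with tag means as the units. For twi:CD2+ the fold was 1.35 (adjusted p = 0.220), higher in 2 of 3 collections, and it was 1.86 and called without WT tag 1 (adjusted p = 0.0389). From Z to SZ the fold was 0.0880 in mef2:CD2- cells (adjusted p = 1.14e-05), lower in 6 of 6 collections and in 8 of 8 pairs of tags. Without Z tag 2 it was 0.523 and still called (adjusted p = 0.00594), with Z tag 1 as the only reporter of Z. The same step in twi:CD2+ cells had a fold of 0.961 (adjusted p = 0.740), lower in 2 of 3 collections. From DZ to DSZ in mef2:CD2- cells it was 1.13 (adjusted p = 0.684), with the single tag of the triple mutant above all 4 tag means of DZ. Over the 7 series with Schlank sites, the median fold of Schlank mutations was 1.10 in both populations, over 19 and 23 effects. The step from Z to SZ was the lowest of the 23 in mef2:CD2- cells with Z tag 2 included.

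Loss of the ZIPIC sites lowered activity on the S background in both populations, and was not called on the DS background. From S to SZ the fold was 0.601 in twi:CD2+ cells (exact permutation test, adjusted p = 0.0138), lower in 3 of 3 collections and in 15 of 16 pairs of tags. In mef2:CD2- cells it was 0.276 (adjusted p = 1.08e-05), lower in 6 of 6 collections, by folds of 0.183 to 0.368, and in 12 of 12 pairs of tags. This step does not use the Z reporters. In mef2:CD2- cells it was called under all alternatives but the one with tag means as the units, with folds of 0.246 to 0.332. The call in twi:CD2+ cells was lost without collection 1 (adjusted p = 0.174), without collection 2 (adjusted p = 0.134) and with collections as the units. With tag means as the units the pair was not tested, since the series did not pass the first step. With a minimum of 20 DNA UMIs, the twi:CD2+ folds that involve S moved by over 1.5 times, and S tag 3 then entered with 8.38 in collection 2 on 22 DNA UMIs. The fold from S to SZ was then 0.207 (adjusted p = 0.00757), that from S to DS 0.217 (adjusted p = 0.0378) and that from WT to S 3.93 (adjusted p = 0.163). On the wildtype background the ZIPIC mutation had no single direction. From WT to Z the fold was 5.31 in mef2:CD2- cells (adjusted p = 0.0586), higher in 6 of 6 collections, but it was 0.894 without Z tag 2 (adjusted p = 0.839) and 9.73 without Z tag 1 (adjusted p = 0.00529). The rise was thus that of Z tag 2. With Z tag 2, the call was also lost without collection 1, 2 or 3 (adjusted p = 0.101, 0.101 and 0.200), in week 2 alone (0.515), without WT tag 1 (0.211), without WT tag 2 (0.106) and with tag means as the units (0.512), at folds of 4.89 to 5.63. For twi:CD2+ the fold was 0.846 (adjusted p = 0.671), lower in 2 of 3 collections, and 1.17 without WT tag 1. From DS to DSZ in mef2:CD2- cells it was 0.708 (adjusted p = 0.228), lower in 3 of 4 collections. Over the 9 series with ZIPIC sites, the median fold of ZIPIC mutations was 0.889 over 27 effects in twi:CD2+ cells and 0.929 over 30 in mef2:CD2- cells.

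Loss of the Deaf1 sites gave a lower mean activity on the S and Z backgrounds in both populations. The drop was called on the S background only in twi:CD2+ cells and on the Z background only in mef2:CD2- cells. From S to DS the fold was 0.630 in twi:CD2+ cells (exact permutation test, adjusted p = 0.0572), lower in 3 of 3 collections and in 8 of 8 pairs of tags. The call was lost without any one of the 3 collections (adjusted p = 0.115 to 0.248), without S tag 4 and with collections as the units. With tag means as the units this pair was not tested either. In mef2:CD2- cells the fold was 0.513 and did not pass (adjusted p = 0.113), although the collection mean was lower in 5 of 6 collections and the tag mean in 6 of 6 pairs. It passed under 10 of 36 alternatives, for example with read counts (adjusted p = 0.0667) and with at least 200 DNA UMIs (adjusted p = 0.0730). With collections as the units it passed as well (limma, adjusted p = 0.0105). From Z to DZ the fold was 0.102 in mef2:CD2- cells (adjusted p = 4.8e-05), lower in 6 of 6 collections and in 8 of 8 pairs of tags. It was 0.607 without Z tag 2 (adjusted p = 0.0271), where Z rests on Z tag 1 alone. In the twi:CD2+ population the fold from Z to DZ was 0.639 (adjusted p = 0.257), lower in 3 of 3 collections and in 6 of 8 pairs of tags. From SZ to DSZ in mef2:CD2- cells the fold was 1.32 (adjusted p = 0.394), higher in 3 of 4 collections. Once 20 DNA UMIs sufficed, this step was called at 1.80 (adjusted p = 0.0189), and so was DZ to DSZ at 1.74 (adjusted p = 0.0384). This minimum adds DSZ tag 3, further observations of DZ and SZ, and DSZ tag 1 in collection 5, with an activity of 0.331 on 44 DNA UMIs. DSZ tag 3 had only 1.04, 1.07 and 1.10 RNA reads per UMI in collections 1 to 3, where the libraries had 16.8, 23.3 and 31.4. Its DNA reads per UMI were 1.10, 1.17 and 1.72. Whether these UMIs mark a reporter was not tested, so the 2 calls are no firm result. Over the 12 series with Deaf1 sites, the median fold of Deaf1 mutations was 0.638 over 34 effects in twi:CD2+ cells and 0.725 over 40 in mef2:CD2- cells, and 29 of these 40 were below 1.

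Of the mutants compared with the wildtype, 1 of 5 was called for twi:CD2+ and 4 of 6 for mef2:CD2-, beside 38.8 and 67.9% over all series. The double mutant DZ was lower in both populations, with folds of 0.540 for twi:CD2+ (exact permutation test, adjusted p = 0.0876) and 0.543 for mef2:CD2- (adjusted p = 0.0268). SZ was lower in mef2:CD2- cells, with a fold of 0.468 (adjusted p = 0.00523), and had a fold of 0.813 in twi:CD2+ cells (adjusted p = 0.311). DS had folds of 0.852 and 0.870 and was called in neither population (adjusted p = 0.740 and 0.835). The triple mutant had a fold of 0.616 in mef2:CD2- cells (adjusted p = 0.423).

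The Schlank and ZIPIC mutations did not combine as a product of their separate effects in mef2:CD2- cells. On the log2 scale, where means are geometric and low values weigh more than in the folds above, S was 1.13 above WT and Z 2.13 above WT. Multiplied, and with Z tag 2 included, these would put SZ at 9.60 times the wildtype, and SZ was at 0.628 times it. The expected value is thus raised by the 1 reporter of Z that stood apart. The interaction term of a linear model of log2 activity was -3.93 (SE 0.72, n = 67 observations, permutation of residuals, p = 1e-05, the smallest the permutations can give, and adjusted p = 5.87e-05). It was below 0 in 6 of 6 collections, from -6.46 to -3.01. The term was -3.62 in week 1 (adjusted p = 0.0005) and -4.28 in week 2 (adjusted p = 0.00513). It was called under all 32 alternatives, with values from -5.62 to -2.25. The value nearest to 0 was that without Z tag 2 (adjusted p = 0.0161), where Z rests on Z tag 1 alone. The value with tag means as the units was -3.94 (adjusted p = 0.0549). The same term in twi:CD2+ cells was -0.64 (SE 0.52, n = 35 observations, p = 0.228 by permutation, adjusted p = 0.430), with 2 of 3 collections below 0, and it was called under none of the 23 alternatives. Over all series, 36.2% of the 47 interactions were called in mef2:CD2- cells and 25.0% of 36 in twi:CD2+ cells.

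The triple mutant gave 2 more interactions in mef2:CD2- cells, both resting on DSZ tag 1. With the ZIPIC sites mutated, the Deaf1 and Schlank mutations had an interaction of 2.94 (SE 0.77, permutation of residuals, adjusted p = 0.00154), above 0 in 4 of 4 collections. On the log2 scale, DZ differed from Z by -2.54, SZ by -2.80 and DSZ, with both mutations, by -2.41. Without Z tag 2 the term was 1.25 and not called (adjusted p = 0.129), and with tag means as the units it was 2.96 (adjusted p = 0.348). With the Schlank sites mutated, the Deaf1 and ZIPIC mutations had an interaction of 1.12 (SE 0.60, adjusted p = 0.168). This term was called with a minimum of 20 DNA UMIs (1.76, adjusted p = 0.00812), without S tag 2 (1.42, adjusted p = 0.0384) and with the collection as a replicate block (1.31, adjusted p = 0.0676). The first of these values includes DSZ tag 3 with its few reads per UMI. Of the 3 interactions in mef2:CD2- cells, 2 were thus called, beside 36.2% of the 47 of all series. Those with WT and the D single mutant were not measured.

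Activity was finally compared between the populations, on UMI counts summed over the tags of a construct (edgeR quasi-likelihood test of RNA over DNA, adjusted over 90 constructs, of which 3.33% were called at 0.05). Of the 6 ChIPCRM3407 constructs tested, 1 was called. Z was 4.23-fold lower in twi:CD2+ than in mef2:CD2- cells (log2 difference -2.08, SE 0.36, adjusted p = 0.000334). Among single tags, Z tag 2 differed by -2.62 (adjusted p = 0.00104). Without Z tag 2, and with no minimum of counts so that Z tag 1 could be tested, the difference was -0.31 (adjusted p = 0.943). The other 5 constructs had log2 differences above 0 that did not pass the test, namely 0.94 for WT (SE 0.48, adjusted p = 0.252), 0.87 for SZ (SE 0.34, adjusted p = 0.124), 0.54 for DS (SE 0.29, adjusted p = 0.268), 0.21 for DZ (SE 0.34, adjusted p = 0.856) and 0.16 for S (SE 0.31, adjusted p = 0.856). DSZ had a library with 1 RNA UMI and was left out.

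The sizes of the motif effects were compared between the populations by an exact permutation test (two-sided) of the log2 fold of each collection, 3 against 6. For 4 of the 6 effects measured in both, every collection of one population lay beyond every collection of the other, which gives the smallest p this design allows (0.0119). After adjustment over the 103 effects of all series it was 0.204, and 10.7% of these effects were below 0.05 before adjustment. The step from S to SZ averaged -0.75 on the log2 scale over the twi:CD2+ collections and -1.90 over the mef2:CD2- collections. The other 3 effects involve Z. WT to Z averaged -0.21 and 2.51, Z to DZ -0.75 and -3.22, and Z to SZ -0.14 and -3.51. Without Z tag 2, the differences between the populations were -1.11, 0.78 and 1.77 (exact p = 0.214, 0.214 and 0.107, with 2 twi:CD2+ collections and a smallest possible p of 0.0357). WT to S and S to DS averaged 0.40 and 0.90, and -0.66 and -0.93, with exact p of 0.369 and 0.5.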

How the data were processed

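The authors deposited, for each of 18 libraries, whole-number counts of UMIs and of reads per tag, without normalization. Per the methods, the first 8 bases of a read were the UMI, constant ends were trimmed with cutadapt 1.14 and tags were aligned with Bowtie, allowing 2 mismatches, to a table of tags and constructs. With 65536 possible UMIs, abundant tags are slightly undercounted. ZIPIC, written 7 in the deposited counts, is written Z here. Base changes were read from the listed construct sequences. Groups and collections were taken from the labels.

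Activities and permutation tests were obtained with pandas 2.3.3, numpy 2.4.6 and scipy 1.17.1 (Python 3.11.15). Adjustment was by Benjamini-Hochberg. UMI counts per construct (at least 10 in every library) were tested with edgeR 4.0.16 in R 4.3.3, with TMM, a term for each collection and an RNA by population term. RNA and DNA of a collection are paired, since they come from the same cells. Alternatives used limma 3.58.1 and DESeq2 1.42.0. The tests were checked on simulated data drawn without effects shared by a tag or a collection. That check therefore does not cover observations that depend on each other. Every ChIPCRM3407 construct, tag and 1-motif pair was reported. The members and lists were chosen with earlier results of these data known.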

Additional observations from a re-analysis of the deposited data

Results flagged for a closer look

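Among 25 groups of 4 to 6 mef2:CD2- collections, each a tag or a construct mean, 3 held a collection that stood apart from the rest. For normally distributed values, chance flags about 1 in 20 groups. In each it was collection 6 and concerned the wildtype. WT tag 1 had an activity of 0.590 there, against a next value of 0.174, WT tag 3 had 0.509 against 0.244, and the WT mean was 0.427 against 0.197. The WT mean contains both of these tags, so the 3 flags are not independent. Without collection 6 the fold from WT to S was 2.07 and that from WT to Z was 6.15, both called in the exact permutation test (adjusted p = 0.0880 and 0.0370).

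The size of 4 motif effects differed between twi:CD2+ and mef2:CD2- cells before adjustment (exact permutation test of 3 against 6 collections, p = 0.0119 for each, adjusted p = 0.204 for each). The difference, twi:CD2+ minus mef2:CD2-, was -2.73 on the log2 scale for WT to Z, 1.15 for S to SZ, 2.47 for Z to DZ and 3.37 for Z to SZ. The Z mutant itself differed by -2.08 in RNA over DNA (edgeR, adjusted p = 0.000334), and all these differences other than S to SZ involve Z tag 2.

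Some tags had RNA counts that entered none of the main tests of motif effects and interactions, because their DNA counts or observations were too few. DSZ tag 1 had up to 202 RNA UMIs in twi:CD2+ cells and, in collections below the DNA minimum, up to 101 in mef2:CD2- cells. DSZ tag 3 had up to 117 RNA UMIs on at most 41 DNA UMIs in mef2:CD2- cells, in week 1 only. Its RNA reads per UMI were only 1.04 to 1.10. S tag 3 had up to 100 in mef2:CD2- cells, also in week 1 only, and 717 in the twi:CD2+ collection with 22 DNA UMIs. These counts of S tag 3 did enter the UMI sums of S in the edgeR test between the populations, which set no minimum per tag.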

How the results depend on the processing

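Of 680 recomputed single values, 617 kept their direction and side of the threshold, 35 lost a call, 18 gained one and 10 changed direction. Pairs that were not tested because the series did not pass the first step count here as not called. Without one collection, 0 to 1 motif effects were called in twi:CD2+ cells (2 with all) and 3 to 5 in mef2:CD2- cells (5 with all), and 0 and 1 to 2 interactions (0 and 2 with all). These counts rest on fewer tests in part. Without twi:CD2+ collection 2 or 3, only 3 of the 6 effects and no interaction could be tested, and without mef2:CD2- collection 1, 2, 3 or 4, only 6 of the 9 effects and 1 of the 3 interactions. With tag means as the units, 0 motif effects and 1 interaction were called in mef2:CD2- cells. The motif effects in twi:CD2+ cells were not tested in this setting, since the series did not pass the first step. Collections as the units (limma) gave 0 called effects of 6 for twi:CD2+, beside 21% of the 105 effects of all series. They gave 6 of 9 for mef2:CD2-, beside 47.1% of 119. Every collection measures the same few tags, Z tag 2 among them. A minimum of 20 DNA UMIs gave 8 effects in mef2:CD2- cells, with DSZ tag 3 included. Week 2 alone gave 3 effects of the 6 that could be tested, and 1 interaction was called in each week alone, with a minimum of 200 DNA UMIs, without DSZ tag 1 and without Z tag 2, since DSZ then fell below 4 observations in all of these but the last. With the replicate block, 2 and 5 effects were called, as without it, and 0 and 3 interactions. The populations differed in 1 construct under each alternative except without Z tag 2, chosen after the values were seen, which gave 0. No collection was paired between the populations.

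The fold from Z to SZ in twi:CD2+ cells turned to 1.02 with tag means as the units and without collection 1, 1.03 without SZ tag 2 and 1.06 without SZ tag 4. That from WT to Z turned to 1.17 without WT tag 1 in twi:CD2+ cells and to 0.894 without Z tag 2 in mef2:CD2- cells, and that from DS to DSZ to 1.18 with a minimum of 20 DNA UMIs. The log2 difference between populations turned to -0.046 for S without the replicate block, -0.21 for S with week 2 only and -0.069 for DZ without twi:CD2+ collection 2, where leaving out single collections gave -0.069 to 0.45. The cause of these changes was not tested. Depth limits chiefly DSZ, S tag 3 and the single tags with under 65 DNA UMIs. Observations are not independent, since each construct rests on 1 to 4 tags.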
